A study of Mus musculus with 12 samples.

Results

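A total of 24 genes were silent in control pre-iPSCs and expressed after 48 h of AA+2i, out of 20325 genes measured. They were chosen by level alone, from TPM (transcript abundance on a scale with an equal sum for each library): 0.5 TPM or less in all 3 DMSO libraries and 1.5 TPM or more in all 3 AA+2i libraries. Of the 7497 genes that were silent in DMSO by this definition, these 24 were the ones that AA+2i switched on. The low values in DMSO and the high values in AA+2i are therefore the criteria themselves, and they are given as a description without a test. Levels with AA alone and with 2i alone were not used in the choice, so the comparison of 2i with AA was tested. AA+2i contains both treatments, so the choice still favours genes that respond to either.

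When mouse fibroblasts are reprogrammed towards iPSCs (induced pluripotent stem cells), some colonies stop short of pluripotency. Lines grown from them are called pre-iPSCs, and much of their pluripotency network is inactive. Per the study's methods such lines are clonal colonies, picked for the absence of a Nanog-GFP reporter signal after delivery of Oct4, Sox2, c-Myc and Klf4, so all 4 groups share these exogenous factors. The labels place all 12 libraries in a partially reprogrammed line that was maintained on irradiated feeders and treated without them, in serum-containing embryonic stem cell medium. The groups were DMSO (the solvent control), AA (ascorbic acid at 50 µg/ml), 2i (1 µM MEK inhibitor and 3 µM GSK inhibitor) and AA+2i (both together at the same doses). RNA was collected on day 2 of treatment from 3 biological replicates of each group, lettered A, B and C.

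AA is a cofactor that keeps iron- and oxoglutarate-dependent dioxygenases active, among them the Tet enzymes that oxidise methylated DNA and many histone demethylases. The MEK inhibitor of 2i blocks ERK signalling. The GSK inhibitor stabilises beta-catenin, which acts with TCF/LEF factors on Wnt target genes. Naive pluripotency, the state of embryonic stem cells in 2i, is held by a network of factors that includes Nanog, Esrrb, Tbx3 and Tcfcp2l1.

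Expected counts summed to between 16173322 and 54392719 per library. DMSO B (49270873) and AA B (54392719) were the deepest, and the next was AA+2i B (23653287). Raw counts summed over the AA or the 2i libraries are not scaled for this depth. Of the 7 genes used to check the cell type, the epithelial genes Cdh1 (E-cadherin) and Epcam had means of 43.2 and 87.7 TPM in DMSO, and the pluripotency genes Dppa5a, Nanog, Zfp42 and Esrrb had 53.2, 4.41, 2.37 and 0.23 TPM. Fut4, a fucosyltransferase listed for the SSEA1 surface antigen, was at 0.04 TPM. A list of 14 feeder and fibroblast markers summed to 357 to 523 TPM in the DMSO libraries and 248 to 351 TPM in the AA libraries. In the 2i and AA+2i libraries the sums were 51.2 to 61.6 and 41.6 to 47.7 TPM. The sum was mostly S100a4 (means of 396 TPM in DMSO and 29.2 TPM in AA+2i). Without S100a4 and Thy1 the other 12 markers summed to 9.29 to 23.3 TPM in DMSO and 8.76 to 13.1 TPM in AA+2i. In DMSO 5 of the 14 were at 1.5 TPM or more in every library. Means in DMSO were 6.29 TPM for Fbn1, 5.13 for Thy1, 3.13 for Prrx1, 2.36 for Twist1 and 1.27 for Col1a2, while 6 of the 14 were below 1 TPM in every library, Lum at 0 among them. The part of these markers in the results was not tested. In these bulk libraries, expression in fewer cells and less RNA per cell cannot be told apart.

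Library C held the highest level of most of the 24 genes within each group. This was so for 16 genes in DMSO, 19 in AA, 20 in 2i and 18 in AA+2i. Summed over the 24 genes, libraries A, B and C reached 2.56, 3.71 and 5.3 TPM in DMSO. The AA libraries summed to 16.2, 19.1 and 40.4 TPM, and the 2i libraries to 30.9, 30.4 and 64.7 TPM. With AA+2i, whose high values chose the genes, the sums were 105, 116 and 163 TPM. Libraries also differed by the GC content of transcripts. At 60% GC the deviation from the mean of the libraries was -1.89 on the log2 scale in DMSO A and 1.14 in AA+2i C. The 24 genes had a median transcript GC content of 51.4% (42.0% to 62.0%), against 50.3% for all tested genes, with Sp5 the highest at 62.0%. The part of library C and of GC content in the single levels was not tested.

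The promoters of 5 members are shown because they span the range of promoter types in the set and belong to genes that the results turn on. Each is the 250 bases upstream of the RefSeq start, 5′ to 3′ on the strand of the gene. RefSeq holds these for build GRCm38.p6, and the coordinates are of the exact match in NCBIM37 (mm9), the build of the study. Of the 24 genes, 12 had an entry, with 15 promoters in all.
In the promoter of Sp5 the capitals mark CTTTGAT, a core of the TCF/LEF motif, 104 to 98 bases upstream of the start.
Sp5 (chr2:70312730-70312979, plus strand): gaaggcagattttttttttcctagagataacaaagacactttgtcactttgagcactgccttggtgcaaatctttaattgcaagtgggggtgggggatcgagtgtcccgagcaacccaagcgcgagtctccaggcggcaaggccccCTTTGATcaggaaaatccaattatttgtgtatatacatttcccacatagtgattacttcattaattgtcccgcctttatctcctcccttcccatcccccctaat
In the promoters of Axin2, Esrrb (the upstream of its 2 promoters) and Lyg1 the capitals mark CpG dinucleotides, which number 24, 6 and 2.
Axin2 (chr11:108781413-108781662, plus strand): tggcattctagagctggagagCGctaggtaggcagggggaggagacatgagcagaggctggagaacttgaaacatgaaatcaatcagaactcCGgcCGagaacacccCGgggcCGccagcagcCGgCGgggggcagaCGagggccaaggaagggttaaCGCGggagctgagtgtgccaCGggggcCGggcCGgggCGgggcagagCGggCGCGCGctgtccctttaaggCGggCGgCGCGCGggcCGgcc
Esrrb (chr12:87701817-87702066, plus strand): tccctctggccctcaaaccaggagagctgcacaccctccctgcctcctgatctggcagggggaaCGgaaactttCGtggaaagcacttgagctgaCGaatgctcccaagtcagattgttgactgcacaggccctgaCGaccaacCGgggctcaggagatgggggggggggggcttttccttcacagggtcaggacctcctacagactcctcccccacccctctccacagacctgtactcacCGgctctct
Lyg1 (chr1:38014605-38014854, minus strand): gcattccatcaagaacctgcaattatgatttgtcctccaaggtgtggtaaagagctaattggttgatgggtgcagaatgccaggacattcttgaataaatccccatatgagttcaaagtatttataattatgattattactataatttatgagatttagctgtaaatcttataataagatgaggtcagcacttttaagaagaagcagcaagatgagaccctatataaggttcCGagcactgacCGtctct
In the promoter of Cyp1b1 the capitals mark GCGTG, the core of the xenobiotic response element bound by the aryl hydrocarbon receptor, 76 to 72 bases upstream of the start, which reads CACGC on the strand shown.
Cyp1b1 (chr17:80114402-80114651, minus strand): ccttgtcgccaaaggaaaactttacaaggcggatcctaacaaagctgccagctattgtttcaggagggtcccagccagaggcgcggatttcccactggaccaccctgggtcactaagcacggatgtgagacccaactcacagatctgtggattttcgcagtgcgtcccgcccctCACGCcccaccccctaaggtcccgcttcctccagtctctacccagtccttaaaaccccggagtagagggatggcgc
The ratio of observed to expected CpG was at least 0.6 in 2 of the 15 promoters (13.3%), those of Axin2 (0.86) and Gpr83 (0.70). The share was near the 15.3% of the 5841 promoters of genes silent in DMSO, and 34.0% of all 32851 promoters of the same length reached that ratio.
Motifs were searched on both strands as short cores and describe letters only. CTTTGAT was present in 1 of the 15 promoters, in 3.21% of all promoters and in 3.65% of those of genes silent in DMSO. GCGTG was present in 2 (Cyp1b1 and Gpr83, 13.3%), against 28.2% of all and 18.1% of silent ones. The STAT motif TTCNNNGAA was present in 2 (Rab25 and Esrrb), against 7.02% and 7.82%. GGGCGGG, the SP/KLF core, was present in 6 (40.0%), those of Slc4a5, Klk7, Axin2 and Cyp1b1 and a pair of Acp5 promoters, against 23.4% and 14.4%. The ERR core AAGGTCA and the T-box core AGGTGTGA were in none of the 15, in 4.08% and 1.12% of all promoters and in 5.03% and 1.51% of silent ones.

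Neither treatment alone switched on most of the set. With the same limit of 1.5 TPM in all 3 libraries, AA alone switched on 2 of the 24 genes, Serpina3m and Mep1b. 2i alone switched on 5, Lyg1, Axin2, Rai2, Cyp1b1 and Sema4f. No gene was on with each, and 17 were on with neither. Among all 7497 genes silent in DMSO, 9 were on with AA (0.12%) and 10 with 2i (0.133%). At the other end, 13 of the 24 stayed at 0.5 TPM or less in every AA library, 7 in every 2i library, and 2 (Klk7 and 4930502E18Rik) in all 6.
Relative to AA+2i, the median member reached 9.88% of its mean level with AA and 28.9% with 2i. The number of genes on differed by library, with 2, 3 and 6 on in AA A, B and C and 6, 7 and 11 in 2i A, B and C.
Leaving out a letter removes conditions from the choice, so the set could only grow. It held 31 genes without letter A, 54 without letter B and 45 without letter C.

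**Figure D1:**
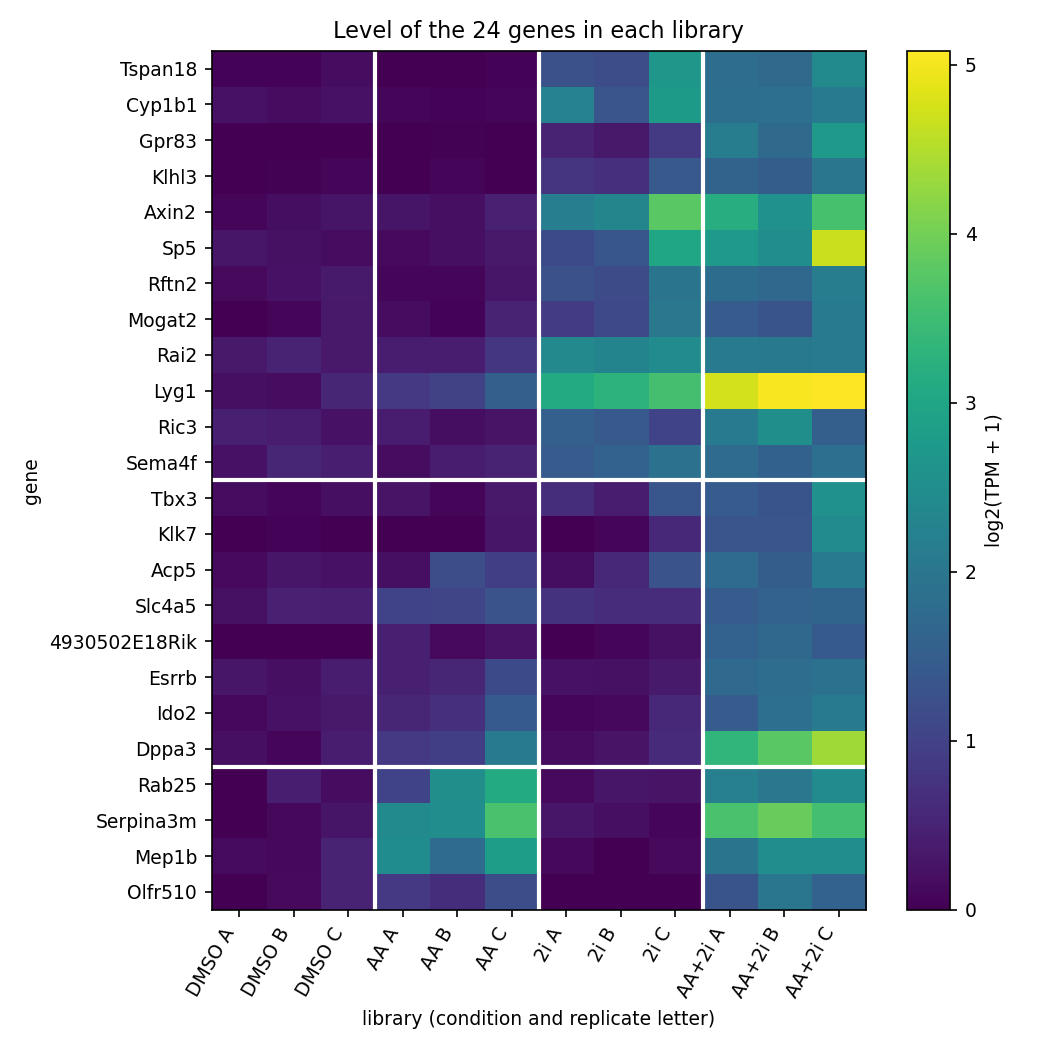
Levels of the 24 genes (rows) in the 12 libraries (columns), as log2(TPM + 1) by colour. White lines separate the 4 conditions and the 12 genes called higher with 2i than AA (top), the 8 not called (middle) and the 4 called higher with AA (bottom), all without the replicate block. Rows of the top block are brighter with 2i and AA+2i than with AA. Rows of the bottom block are brighter with AA and AA+2i than with 2i. The colour scale reaches up to the level of Lyg1, so low rows such as Gpr83 with 2i and Olfr510 with AA stay dark.

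The genes split by treatment. In the comparison of 2i with AA (edgeR quasi-likelihood test, Benjamini-Hochberg adjusted over the 13400 tested genes, all 24 members among them), 12 of the 24 were higher with 2i and 4 were higher with AA, while 8 did not pass. Only 19 of the 24 had 10 or more counts in 3 or more of the AA and 2i libraries. The rest entered the test through the AA+2i libraries that chose them. Among them were the called Gpr83 and Olfr510, and Dppa3, which passed only in some other settings. Over all tested genes, 3.57% were higher with 2i and 5.88% higher with AA, 478 and 788 genes. By limma on log2(TPM + 1) these were 296 and 820 genes, and 10 and 4 of the 24. With the letter as a replicate block, 13 of the 24 were higher with 2i and 8 with AA, against 7.05% and 9.84% of all tested genes, and all 16 calls held. In all 16 called members the 2i and AA libraries did not overlap, so the same direction in the 3 letters follows and adds no support. The TPM of the 2i and AA libraries did not overlap in 20 of the 24, against 25.0% of tested genes. The median log2 difference (2i minus AA) was 2.71 over the 24 genes and 0.00 over all tested genes. The genes were chosen for a change under AA+2i, which contains both treatments. More differences than among all tested genes can follow from that choice, so nothing is read from the excess.
Calls were fewest without letter B, with 2 libraries left in each group. Letter B held the deepest AA library, and the part of depth in this was not tested. Only Cyp1b1 and Mep1b passed (edgeR adjusted p = 0.0184 and 0.0455), the other 14 having adjusted p of 0.0622 to 0.382, and 74 genes of the whole table were called. The differences themselves were of similar size for most, such as 2.90 for Lyg1, 4.96 for Axin2, 3.17 for Rai2 and -5.52 for Serpina3m (log2, 2i minus AA), and that of Klhl3, with 3 counts in AA, moved from 5.20 to 7.80. Without letter A, Mogat2 and Olfr510 no longer passed (0.083 and 0.0507). Without letter C, Olfr510 and Rab25 did not pass (0.0919 and 0.134) and Ido2 did (0.0476).

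**Figure D2:**
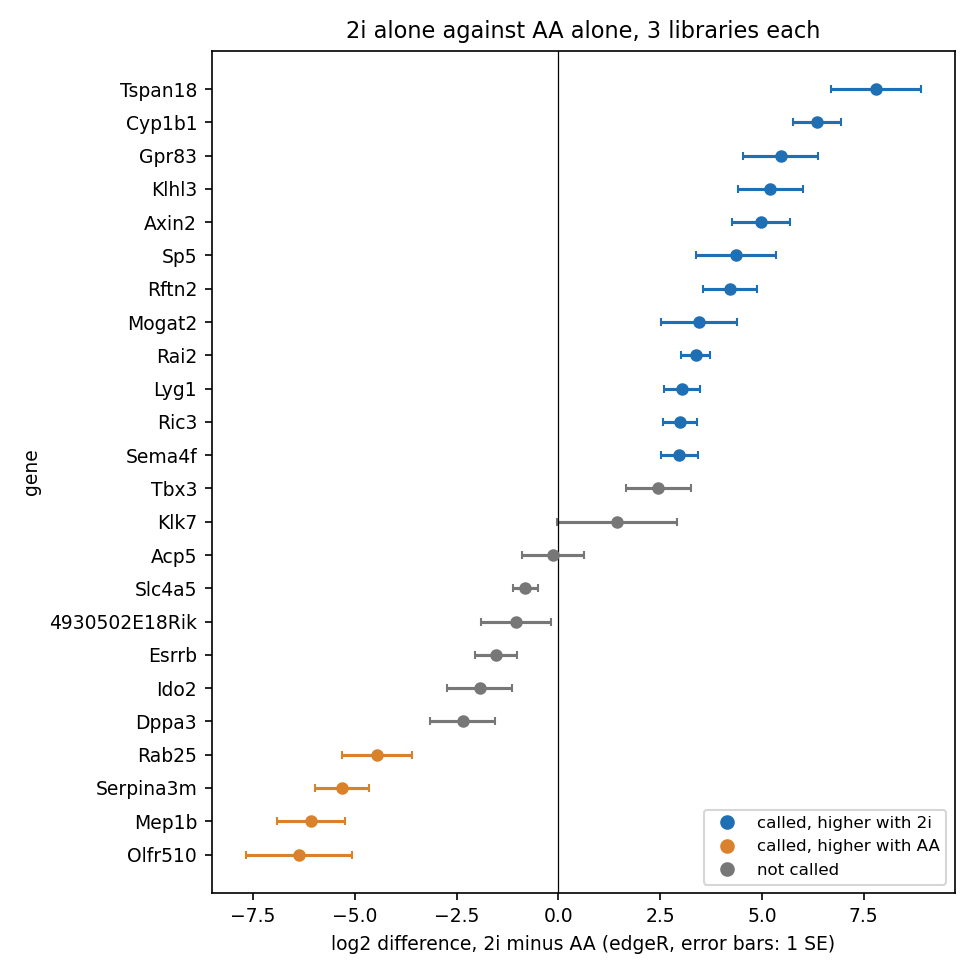
Difference between 2i alone and AA alone for each of the 24 genes (log2, horizontal axis), as edgeR estimates with 1 SE, 3 libraries per group. Blue points to the right are the 12 genes called higher with 2i, orange points to the left the 4 called higher with AA, and grey points the 8 not called, all without the replicate block.

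Among the 12 genes higher with 2i, the level with 2i alone ran from 13.3% to 130% of the AA+2i mean (median 73.7%), and the level with AA alone from 0.17% to 14.2% (median 3.60%). Their edgeR adjusted p ran from 0.000137 to 0.0385.
The Wnt targets were Axin2, a scaffold of the beta-catenin destruction complex that is induced as negative feedback, and Sp5, a zinc finger factor induced by Wnt. Axin2 was at 0.06, 0.14 and 0.22 TPM in DMSO A, B and C, 0.22, 0.15 and 0.38 in AA, 3.50, 3.97 and 12.8 in 2i and 7.96, 4.95 and 11.1 in AA+2i. It was on in every 2i library, and the 2i and AA+2i libraries overlapped. Its log2 difference between 2i and AA was 4.98 ± 0.72 (SE, n = 3 per group, edgeR adjusted p = 0.00133).
Sp5 was at 0.23, 0.17 and 0.12 TPM in DMSO, 0.10, 0.15 and 0.27 in AA, 1.2, 1.57 and 6.93 in 2i and 5.71, 4.63 and 24.7 in AA+2i. AA alone left it at its DMSO mean of 0.17 TPM. The log2 difference between 2i and AA was 4.36 ± 0.98 (SE, edgeR adjusted p = 0.0161), and it did not pass by limma on log2(TPM + 1) (adjusted p = 0.138). Sp5 in library C stood apart with both 2i and AA+2i, at 6.93 and 24.7 TPM against 1.2 to 5.71 TPM in the other libraries of those groups.
Cyp1b1, a cytochrome P450 and known target of the aryl hydrocarbon receptor, was high with 2i in every letter. It was at 0.19, 0.13 and 0.19 TPM in DMSO, 0.06, 0.03 and 0.06 in AA, 3.75, 1.53 and 5.78 in 2i and 2.57, 2.61 and 3.32 in AA+2i. The 2i mean was 130% of the AA+2i mean and the groups overlapped. The log2 difference between 2i and AA was 6.35 ± 0.59 (SE, edgeR adjusted p = 0.000137).
Rai2, a retinoic acid-induced gene on the X chromosome, varied little between letters. It was at 0.28, 0.40 and 0.27 TPM in DMSO, 0.33, 0.30 and 0.74 in AA, 4.26, 3.92 and 4.45 in 2i and 3.30, 3.17 and 3.21 in AA+2i. Every 2i library was above every AA+2i library, a pattern not seen in the other 23 genes. Its log2 difference between 2i and AA was 3.37 ± 0.35 (SE, edgeR adjusted p = 0.000249).
Lyg1, a lysozyme G-like protein, had the highest level of the set. It was at 0.16, 0.12 and 0.47 TPM in DMSO, 0.79, 0.99 and 1.90 in AA, 7.58, 8.71 and 11.1 in 2i and 25.6, 31.7 and 32.9 in AA+2i. The 4 groups did not overlap, and the AA+2i mean was 2.90 times the sum of the AA and 2i means. As AA+2i levels chose the gene, this ratio is given as a description. Its log2 difference between 2i and AA was 3.03 ± 0.44 (SE, edgeR adjusted p = 0.00149).
Sema4f, a semaphorin, was on with 2i alone at 1.76, 2.02 and 2.73 TPM, with AA+2i at 2.44, 1.98 and 2.64 TPM and AA at 0.13 to 0.43 TPM. Its expected counts were whole in 4 of the 12 libraries, so RSEM divided part of its reads with other genes.
The tetraspanin Tspan18 was at 1.38, 1.31 and 5.46 TPM with 2i and 2.39 to 4.36 TPM with AA+2i, with 2 counts in all AA libraries together. Its counts were whole in 3 of the 12 libraries, so its reads too were partly divided with other genes. From counts it was 258 times higher with 2i than with AA (95% counting interval 70.9 to 2141).
Klhl3, an adaptor of the Cullin-3 ubiquitin ligase, was at 0.72, 0.60 and 1.68 TPM with 2i and 1.84 to 2.97 TPM with AA+2i. With 3 counts in AA, its ratio was 36.4 (11.9 to 181). The G protein-coupled receptor Gpr83 had no count in the 3 DMSO libraries, where 3 counts would be up to 0.17 TPM, and 1 count with AA. It was at 0.43, 0.28 and 0.82 TPM in 2i and 3.37, 2.38 and 5.77 with AA+2i, a 2i level of 13.3% of AA+2i. The ratio of 2i to AA was 58.6 (9.87 to 2379), and by limma on log2(TPM + 1) it did not pass (adjusted p = 0.208). All these intervals cover counting error only.
The remaining 3 genes higher with 2i reached intermediate levels with it. Ric3, a chaperone of nicotinic receptors, had 1.02 to 1.93 TPM with 2i and 1.92 to 4.77 TPM with AA+2i. Rftn2, a lipid raft protein, had 1.28 to 2.88 and 2.25 to 3.36 TPM. Mogat2, a monoacylglycerol acyltransferase, had 0.88 to 3.10 and 1.5 to 3.27 TPM. All 3 were at 0.41 TPM or less in every AA library. Expected counts were whole in 7 of the 12 libraries for Ric3 and 6 for Rftn2, so part of their reads was divided with other genes.

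**Figure D3:**
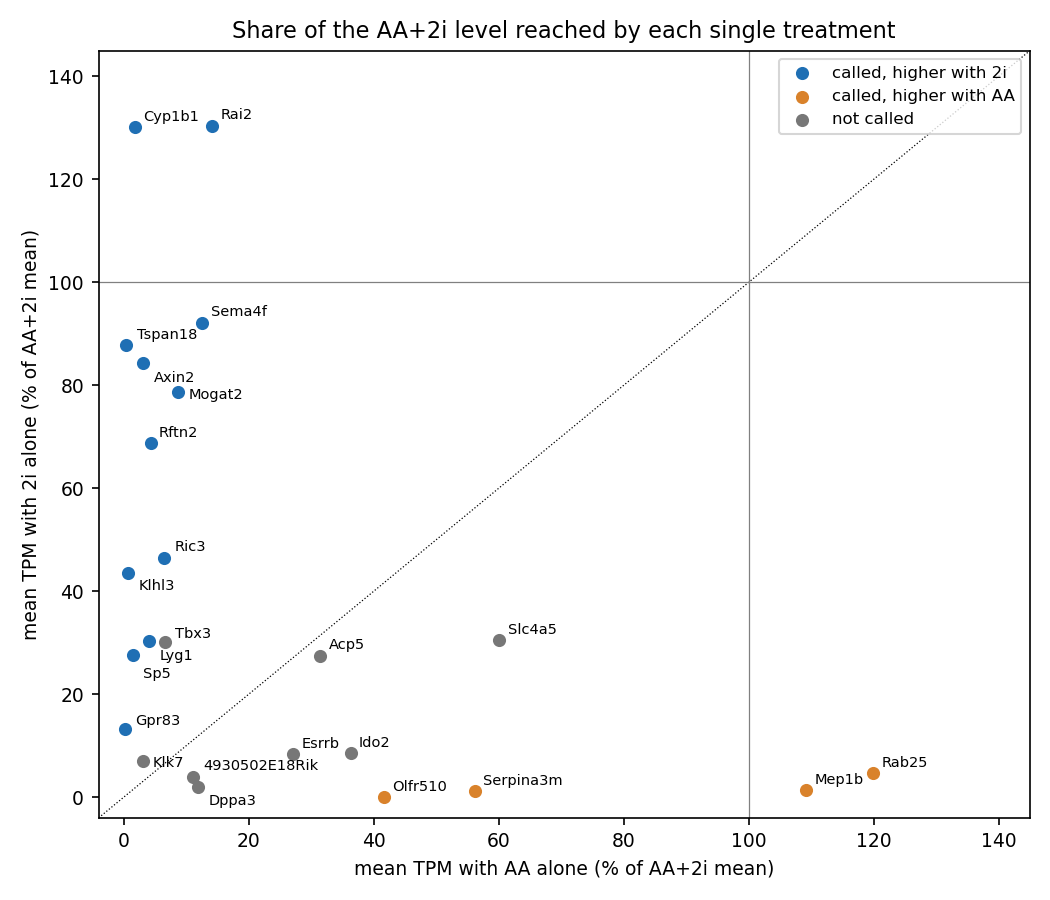
Mean TPM with AA alone (horizontal) and with 2i alone (vertical), each as a percentage of the AA+2i mean, for the 24 genes. The dotted diagonal marks equal levels and grey lines mark 100%. Most genes lie along one axis, and Cyp1b1 and Rai2 with 2i and Mep1b and Rab25 with AA pass 100%.

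The 4 genes higher with AA reached 41.6% to 120% of the AA+2i mean with AA alone (median 82.7%), and 4.67% or less with 2i alone.
Serpina3m, a serine protease inhibitor of the Serpina3 cluster, was at 0, 0.08 and 0.22 TPM in DMSO, 4.33, 4.60 and 11.3 in AA, 0.23, 0.15 and 0.06 in 2i and 11.3, 13.9 and 10.8 in AA+2i. The AA and 2i groups were well apart, by -5.32 ± 0.65 on the log2 scale (SE, 2i minus AA, edgeR adjusted p = 0.000582). Its expected counts were whole in 5 of 12 libraries. RSEM thus divided part of its reads with other genes, and as the cluster holds near-identical copies its level is uncertain.
Mep1b, the beta subunit of the metalloprotease meprin, was at 0.11, 0.08 and 0.42 TPM in DMSO, 4.58, 2.45 and 6.18 in AA, 0.08, 0 and 0.09 in 2i and 2.89, 4.61 and 4.60 in AA+2i. AA alone gave 109% of the AA+2i mean. The log2 difference was -6.08 ± 0.83 (SE, 2i minus AA, edgeR adjusted p = 0.00106).
Rab25, a small GTPase of epithelial cells, was at 0, 0.35 and 0.12 TPM in DMSO, 1.02, 4.67 and 7.67 in AA, 0.09, 0.23 and 0.20 in 2i and 3.63, 3.02 and 4.49 in AA+2i. It was below the limit in AA A and so was not on with AA alone, although the AA mean was 120% of the AA+2i mean. The log2 difference was -4.46 ± 0.85 (SE, 2i minus AA, edgeR adjusted p = 0.00663).
Olfr510, an olfactory receptor, was at 0, 0.10 and 0.40 TPM in DMSO, 0.80, 0.59 and 1.33 with AA and 1.51, 2.99 and 2.04 with AA+2i, with no count in any 2i library. Against 3 counts in the 2i libraries it was at least 2.99-fold higher with AA. It had 37 counts in all AA libraries together, and the edgeR adjusted p was 0.0149.

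The 8 genes that did not pass without the block included the 3 naive pluripotency genes of the set, and 5 of the 8 passed with it. With the replicate block the edgeR adjusted p was 0.00508 for Dppa3, 0.0176 for Esrrb, 0.00904 for Ido2 and 0.0488 for Slc4a5, all higher with AA, and 0.00108 for Tbx3, higher with 2i. Each of the 5 had the same direction in the 3 letters, which adds no support to a test blocked on the letter. The block was chosen after the calls had been seen, and it fitted a common effect of each letter over all 12 libraries. Yet deviations from the group mean in AA+2i B correlated negatively with those in DMSO B and AA B (-0.66 and -0.64). For 7 of the 8, every AA+2i library was above every AA and every 2i library, against 2.05% of all tested genes. The AA+2i mean exceeded the sum of the single means in all 8. Both are given as a description, as AA+2i levels chose the genes.
Dppa3 (Stella), a maternal factor expressed in naive cells and germ cells, was at 0.16, 0.06 and 0.30 TPM in DMSO, 0.80, 0.92 and 3.20 in AA, 0.12, 0.20 and 0.53 in 2i and 9.18, 12.8 and 19.4 in AA+2i. AA alone gave 11.9% of the AA+2i mean and 2i alone 2.05%. The AA+2i mean was 7.17 times the sum of the single means, or 6.16 to 10.8 times when 1 letter was left out. The ratio varied between single letters (SD 3.24). As AA+2i levels chose the gene, it is given as a description. The 2i and AA libraries did not overlap, but their difference of -2.35 ± 0.80 (log2, SE, 2i minus AA) had an edgeR adjusted p of 0.103 without the block (DESeq2 adjusted p = 0.0445). Dppa3 had only 6 to 31 counts in an AA library and 1 to 4 in a 2i library. It entered these tests through the AA+2i libraries that chose it, which also limits its pass with the block.
Esrrb, an orphan nuclear receptor of the naive network, was at 0.23, 0.15 and 0.31 TPM in DMSO, 0.37, 0.47 and 1.22 in AA, 0.18, 0.17 and 0.29 in 2i and 2.33, 2.53 and 2.73 in AA+2i. With 2i alone it was within the range of DMSO. AA gave 27.1% of the AA+2i mean, and the log2 difference between 2i and AA was -1.54 ± 0.52 (SE, edgeR adjusted p = 0.103, DESeq2 adjusted p = 0.0492).
Tbx3, a T-box factor of the naive network, had the higher values with 2i. It was at 0.12, 0.05 and 0.15 TPM in DMSO, 0.21, 0.06 and 0.27 in AA, 0.58, 0.33 and 1.58 in 2i and 1.79, 1.51 and 4.95 in AA+2i. The 2i mean was 30.2% and the AA mean 6.55% of AA+2i, with a log2 difference of 2.45 ± 0.81 (SE, edgeR adjusted p = 0.0918, DESeq2 adjusted p = 0.0174). It just met the limit of 1.5 TPM in AA+2i B. With a correction for GC content Esrrb, Tbx3 and Slc4a5 passed (edgeR adjusted p = 0.0299, 0.0458 and 0.0353), in the same directions. That setting called more genes in general, 2578 of 13297 tested against 1266 of 13400 without it.
Klk7, a kallikrein protease, stayed at 0.5 TPM or less with each treatment alone. It was at 0, 0.03 and 0 TPM in DMSO, 0, 0 and 0.23 in AA, 0, 0.05 and 0.48 in 2i and 1.54, 1.53 and 4.48 in AA+2i. The single levels rest on 5 counts in all AA libraries and 9 in all 2i libraries, most of them in library C, so no ratio to AA+2i is given.
4930502E18Rik, an X-linked gene with no known role given in the files, had no count in DMSO. It was at 0.36, 0.09 and 0.21 TPM in AA, 0, 0.07 and 0.17 in 2i and 2.01, 2.24 and 1.71 in AA+2i. It had 10 counts in all AA libraries, 3 in all 2i libraries and 24 to 33 in an AA+2i library, so its levels rest on few reads.
The other 3 reached part of the AA+2i level with one or both. Ido2, a tryptophan-degrading enzyme, had 0.45, 0.61 and 1.70 TPM in AA, 0.06, 0.08 and 0.51 in 2i and 1.79 to 3.20 in AA+2i. Acp5, the tartrate-resistant acid phosphatase, had 0.16, 1.30 and 0.93 TPM in AA, 0.14, 0.48 and 1.47 in 2i and 1.84 to 3.34 in AA+2i. Slc4a5, a sodium bicarbonate cotransporter, had 1.03, 1.08 and 1.45 TPM with AA, 0.57 to 0.67 in 2i and 1.77 to 2.11 in AA+2i. In all 6 libraries of the single treatments Slc4a5 lay above its DMSO range of 0.17 to 0.38 TPM.

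**Figure D4:**
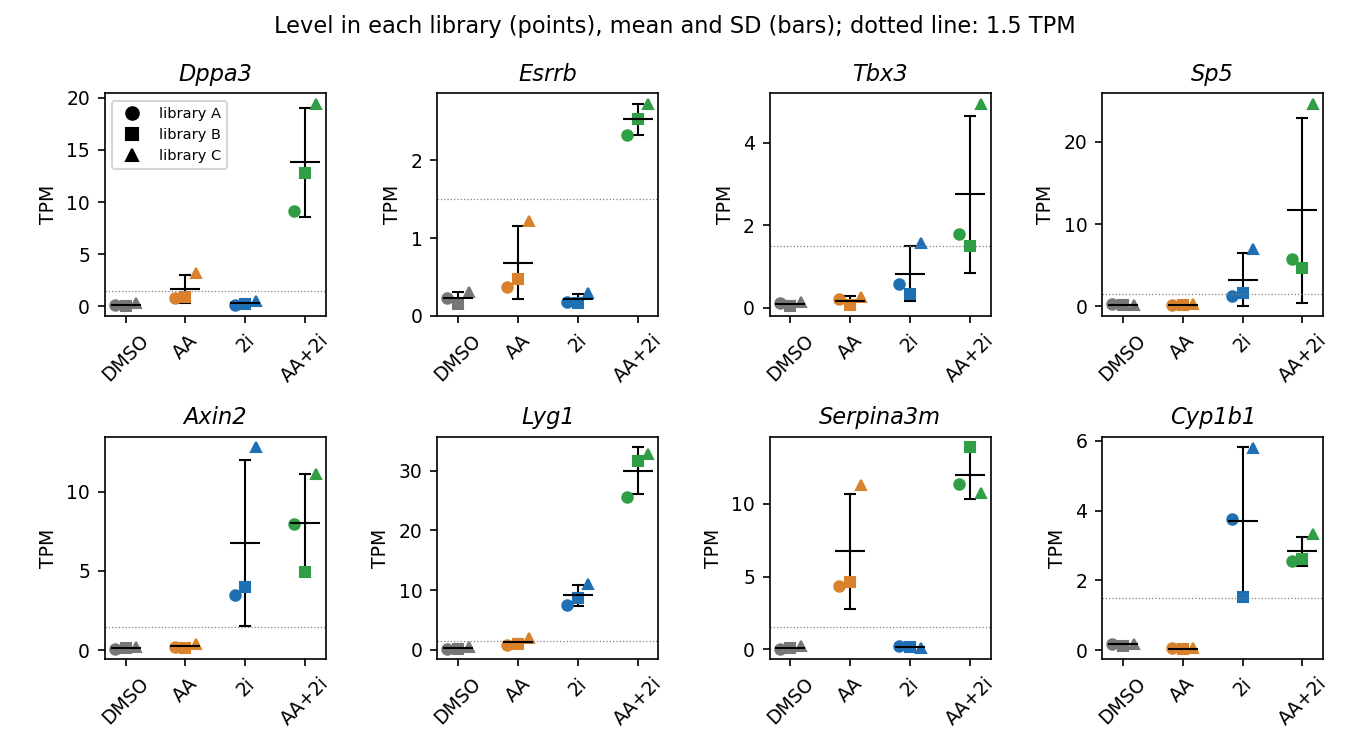
TPM in each library for 8 of the genes (points, shapes give the letter), with mean and SD (bars) over 3 libraries and a dotted line at 1.5 TPM. Dppa3 and Esrrb are near their DMSO level with 2i, Axin2 and Cyp1b1 overlap between 2i and AA+2i, and Serpina3m is low with 2i.

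For the set as a whole, the mean with AA+2i exceeded both single means in 20 genes and their sum in 19. It was below a single mean in the other 4, Rai2 and Cyp1b1 (2i higher) and Mep1b and Rab25 (AA higher). Every AA+2i library was above all 6 AA and 2i libraries in 11 genes. Among all tested genes 2.05% had every AA+2i library above those 6. As AA+2i levels chose the genes, nothing is read from this difference.

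Just inside the upper limit, the lowest AA+2i library held 1.5 TPM for Mogat2 and 1.51 TPM for Olfr510 and Tbx3, and just outside were Spic (1.48), Rhbdl3 (1.45) and Tlx1 (1.39). Just inside the lower limit, the highest DMSO library held 0.47 TPM for Lyg1 and Sema4f and 0.42 TPM for Mep1b. Just outside were A330049M08Rik and Nanos3 (0.52) and Ntsr2 (0.53).
The converse pattern was present as well. A further 12 genes silent in DMSO were on with a single treatment but not with AA+2i, 7 with AA and 5 with 2i. The Wnt-responsive Nkx1-2 was at 2.48, 1.52 and 6.41 TPM in 2i against 0.83, 0.63 and 1.46 in AA+2i. The sulfotransferase Sult1c1 was at 6.30, 3.77 and 5.18 TPM in AA against 0, 0.16 and 0.05 in AA+2i.

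Genes of the pathways to which members belong were compared between 2i and AA with the same test. Of 30 Wnt target and feedback genes, 16 were silent in DMSO and Axin2 and Sp5 were switched on by AA+2i. Among the 24 tested, 8 were higher with 2i and none with AA (median log2 difference 1.09 against 0.00 for all tested genes). Besides Axin2 and Sp5 they were Nkd1, Sp8, Rnf43, Tnfrsf19, Nkx1-2 and Wnt8a. Of the 27 tested naive pluripotency genes, 11 were higher with AA, Nanog, Zfp42 and Dppa5a among them, and 1 (Tcfcp2l1) was higher with 2i (median -1.40). The list held 29 genes, of which 28 were in the files, 6 were silent in DMSO and 3 were members.
Of 21 tested ERK target and feedback genes, 6 were higher with AA and none with 2i, including Dusp6 and Spry4 (median -0.86). Of 9 tested germline genes, 5 were higher with AA and 1 with 2i, and none of the 28 silent ones was switched on by AA+2i. Counts higher with 2i and with AA were 3 and 2 of 11 for primitive streak genes, 1 and 1 of 11 for endothelial and blood genes, 2 and 1 of 10 for neural genes and 1 and 1 of 7 for trophoblast genes. They were 0 and 0 of 6 for primitive endoderm genes, 1 and 2 of 11 for feeder fibroblast genes and 0 and 4 of 6 for the genes of the cell check. Apart from Sp5 among streak genes and Esrrb in the cell check, these lists held no member.

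Members were spread over 14 chromosomes, and no 2 of them were adjacent. Of their 48 flanking genes, 15 were silent in DMSO (31.2%, against 36.9% of all genes) and none was both silent and switched on by AA+2i. Dppa3 (chr6:122576428-122580290) lies between the pluripotency genes Gdf3 and Nanog, which were low but not silent in DMSO. Gdf3 had means of 3.81 TPM in DMSO, 44.4 in AA, 3.30 in 2i and 41.1 in AA+2i. Nanog had 4.41, 17.8, 6.08 and 36.6 TPM. Both neighbours were higher with AA than with 2i (edgeR adjusted p = 0.000241 and 0.0222).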

How the data were processed

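RNA sequencing of 12 libraries (4 groups, 3 biological replicates) was used. The authors trimmed and quality-filtered single-end reads, aligned them with Bowtie2 to mm9 RefSeq genes and estimated expression with RSEM (version 1.2.4 per the labels). The authors deposited raw expected counts, which can be fractional because RSEM divides reads that match several genes. They also deposited TPM, in which the authors scaled each library to an equal sum. Counting did not use strand. One malformed TPM value (0610011F06Rik, AA C) was left missing, and FPKM were not used.

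Members were found from TPM. The members and the gene lists were chosen with earlier results of these data known. After rounding the expected counts, 2i was compared with AA by edgeR 4.0.16 (R 4.3.3, RLE factors, quasi-likelihood, 1 mean for each of the 4 groups). Genes needed 10 or more counts in 3 or more libraries, and adjusted p under 0.05 was called. The study used EBSeq, which was not run here. Standard errors are the log2 difference divided by the root of F. Alternatives used DESeq2 1.42.0, limma 3.58.1, TMM factors, other filters and thresholds, a replicate block, a GC correction and leaving out each letter. The letters were taken to pair AA with 2i because deviations from the group means correlated in all 3 letters (0.90, 0.36 and 0.87 for A, B and C), a decision made after the calls had been seen. Over all pairs of groups the same-letter correlation had a mean of 0.44 (-0.66 to 0.93) and the different-letter one -0.21 (-0.89 to 0.86), the negative same-letter values being of AA+2i B with DMSO B and AA B, and 9 of 12 libraries correlated best with their own letter. Deviations cancel out within each group, so the different-letter mean is tied to the same-letter one and adds no separate evidence. The block fitted 1 effect for each letter over all 12 libraries, AA+2i B among them. A paired fit of only the AA and 2i libraries was not made. Tests were tried on simulated data. Named genes were members with the highest levels, the largest called differences, places on the gene lists or values nearest the thresholds, and all 24 are given. Promoters came from RefSeq (GRCm38.p6) and were placed in NCBIM37 by exact match, in Python 3.11.15. Intervals of count ratios are exact 95% intervals and cover counting error only. The sources do not say how the biological replicates were kept apart, so p-values measure only the spread between these samples, which may be technical.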

Additional observations from a re-analysis of the deposited data

How the results depend on the processing

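The number of switched-on genes moved with the limits, from 24 to 11 with 0.25 TPM or less in DMSO, 7 with 3 TPM or more in AA+2i, 44 with 1 TPM or more, and 31 to 54 when 1 letter was left out. The directions were fixed in advance, as stricter limits could only lower the number and looser limits or fewer letters could only raise it. With limits of 0.25 and 3 TPM together, only Sp5, Axin2 and Serpina3m remained. All 3 differed between 2i and AA, 2 higher with 2i and 1 with AA. The 16 members that differed ranged from 2 to 15 when 1 letter was left out (1 to 12 higher with 2i, 1 to 3 higher with AA). Over all 13400 tested genes, 74 to 958 were called in those settings. The replicate block gave 21 members, with 8 higher with AA in place of 4, adding Dppa3, Esrrb, Ido2, Slc4a5 and Tbx3. The GC correction with the replicate block also gave 21, with 8 higher with AA, and called 4045 of 13297 tested genes. No call of the 16 was lost with the block. Leaving out 1 letter, chosen after seeing the data, was also tried for the AA+2i level over the sum of the single levels of Lyg1 and Dppa3. DESeq2 and the GC correction alone each gave 19, and called 1765 of 13400 and 2578 of 13297 tested genes. The main model called 1266 of 13400. Limma on log2(TPM + 1) gave 14 (without Gpr83 and Sp5), and called 1116 of 13399. The model of only 6 libraries gave 14 (without Mogat2 and Olfr510), and called 880 of 13400. A count filter on the AA and 2i libraries gave 14 of 19 tested, and called 1223 of 12891. Under that filter Gpr83, Olfr510 and Dppa3 were not tested. The direction of the difference between 2i and AA was reversed once, for Acp5 without letter B. Over the 3 letters left out its log2 difference ran from -1.16 to 0.65. With an on limit of 1 TPM, 4 genes were on with AA, 9 with 2i and 11 with neither, and with 2 TPM 3 were on with 2i. The cause of these shifts was not tested. The median levels as a percentage of AA+2i, at 9.88% with AA and 28.9% with 2i, ranged from 8.01% to 12.6% and from 27.2% to 30.4%. In limma the median difference over all genes was -0.10 on the log2 scale. Members with few counts limit what can be said of their single levels.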
